A study of Mus musculus with 10 samples.

Results

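The 40 genes described here encode the unfolded protein response and the chaperones, oxidoreductases and degradation factors of the endoplasmic reticulum (ER). They were taken from a list of gene symbols among 18193 genes measured. All 40 were on the array, with 93 probe sets, and each gene is represented by its brightest probe set. Ero1l and Ero1lb are found under their current symbols, Ero1a and Ero1b. The tissue was epididymal white fat, the pad beside the epididymis, from male C57BL/6J mice 8 weeks old at the start. For 8 weeks, 5 mice received a high-fat diet (HFD) with 60% fat, and 5 received a normal chow (CRF-1). Each mouse had 1 Affymetrix array. A level below is the log2 of an intensity after quantile normalization, so a difference of 1 is 2-fold. Differences are HFD minus chow, with the standard error (SE) from limma, and the values of a group are listed for arrays 1 to 5. Levels of different genes come from different probes and are not compared with each other.

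The ER folds secreted and membrane proteins. When unfolded protein builds up there, the membrane sensors Ern1 (IRE1), Eif2ak3 (PERK) and Atf6 are activated. IRE1 splices Xbp1 mRNA, PERK phosphorylates the translation factor eIF2alpha and so favours translation of Atf4, and Atf6 is cut to release a transcription factor. Targets include chaperones such as Hspa5 (BiP), folding enzymes, and the machinery of ER-associated degradation (ERAD), which returns misfolded proteins to the cytosol for the proteasome. In adipose tissue this response has been studied mainly in obesity. The probes measured transcript of each gene, not Xbp1 splicing or phosphorylation of the sensors.

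Many of these genes share a promoter element, shown here because it groups members by sequence alone. The ER stress response element (ERSE) is CCAAT and CCACG separated by 9 bases, and the related ERSE-II is ATTGG and CCACG separated by 1 base. Both strands were searched from 250 bases before to 50 after the RefSeq start on GRCm38.p6. The table of promoters held 35 members. An ERSE was present for 10 of them and an ERSE-II for 2 others, against 0.119% and 0.0365% of 32851 windows of that length. The UPR element core TGACGTGG and the amino acid response element TGATGNAAT were in none of the members' windows, and in 0.676% and 0.965% of all windows. Near matches were not counted. The Asns window holds tgatgaaac, which departs from the amino acid response element only in its last base. The windows of Chac1 and Herpud1 hold gttgcatca, such a near match on the other strand. The promoters below are those of Hsp90b1, with 2 ERSEs, of Hspa5 and Creld2, which encode lumenal proteins, and of Herpud1 and Syvn1, the members with a motif that passed the diet test. The last 4 hold 1 motif each and were picked among such members after their values were seen. Each is printed 5′ to 3′ on the gene's strand, with the motif in capitals.
Hsp90b1 (chr10:86705395-86705694, minus strand): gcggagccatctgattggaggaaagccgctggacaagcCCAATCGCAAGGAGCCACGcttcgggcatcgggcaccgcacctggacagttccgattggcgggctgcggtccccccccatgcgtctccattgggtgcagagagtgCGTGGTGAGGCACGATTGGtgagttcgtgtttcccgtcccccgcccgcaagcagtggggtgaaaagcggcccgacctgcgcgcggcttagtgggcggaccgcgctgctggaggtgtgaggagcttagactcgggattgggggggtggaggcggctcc
Hspa5 (chr2:34771840-34772139, plus strand): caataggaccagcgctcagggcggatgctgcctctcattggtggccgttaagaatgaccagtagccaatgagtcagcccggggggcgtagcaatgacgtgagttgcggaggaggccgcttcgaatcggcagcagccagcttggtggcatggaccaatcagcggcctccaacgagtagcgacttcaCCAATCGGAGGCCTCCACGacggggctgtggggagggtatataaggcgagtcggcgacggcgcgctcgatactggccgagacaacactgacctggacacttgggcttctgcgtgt
Creld2 (chr15:88819396-88819695, plus strand): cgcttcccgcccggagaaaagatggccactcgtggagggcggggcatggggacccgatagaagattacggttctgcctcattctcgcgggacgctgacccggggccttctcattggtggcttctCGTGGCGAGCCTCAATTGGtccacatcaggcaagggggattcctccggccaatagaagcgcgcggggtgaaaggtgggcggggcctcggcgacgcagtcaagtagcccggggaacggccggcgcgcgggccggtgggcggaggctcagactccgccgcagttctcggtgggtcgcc
Herpud1 (chr8:94386179-94386478, plus strand): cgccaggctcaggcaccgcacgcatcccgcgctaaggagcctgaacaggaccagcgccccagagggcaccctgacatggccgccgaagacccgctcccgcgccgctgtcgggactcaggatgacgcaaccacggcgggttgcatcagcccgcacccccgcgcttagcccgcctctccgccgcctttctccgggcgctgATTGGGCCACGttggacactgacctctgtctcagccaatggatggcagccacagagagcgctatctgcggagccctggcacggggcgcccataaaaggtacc
Syvn1 (chr19:6046326-6046625, plus strand): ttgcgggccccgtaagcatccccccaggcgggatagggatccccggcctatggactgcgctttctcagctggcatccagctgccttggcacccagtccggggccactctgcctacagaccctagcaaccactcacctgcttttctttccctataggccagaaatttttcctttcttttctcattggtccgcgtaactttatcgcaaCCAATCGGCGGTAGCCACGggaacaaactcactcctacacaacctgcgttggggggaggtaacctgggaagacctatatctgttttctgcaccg
The other matches are given in the direction of the motif, with its fixed letters in capitals.
Calr: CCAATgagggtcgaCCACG
Derl3: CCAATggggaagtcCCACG
Canx: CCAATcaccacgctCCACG
Pdia6: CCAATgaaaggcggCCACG
Ero1b: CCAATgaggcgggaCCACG
Dnajc3: CCAATcagcgccaaCCACG
Dnajb11: ATTGGcCCACG

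The HFD arrays were alike and the chow arrays were not. Markers of epididymis and testis, of which 7 of 13 were lower on the high-fat diet, averaged 4.09 to 5.87 in HFD and 7.87 to 12.16 in chow. Epithelial markers, of which 8 of 8 were lower, averaged 4.0 to 4.68 in HFD and 6.89 to 10.44 in chow. Chow array 2 was the highest in the first list and chow arrays 1 and 2 in the second. Spink8 averaged 5.99 in HFD and 11.90 in chow, and Krt8 averaged 6.20 in HFD and 10.35 in chow. Adipocyte markers, of which 1 of 8 was higher, averaged 11.31 to 11.90 in HFD and 9.68 to 11.83 in chow, with the lowest levels in chow arrays 2 and 1. The adipocyte gene Fabp4 averaged 13.60 in HFD and 13.59 in chow. Its mean level was the highest of all genes, where quantile normalization makes the arrays alike, so its diets could hardly differ. The actin control's ratio of 5′ over 3′ probe sets was 0.557 to 0.643 in HFD and 0.272 to 0.456 in chow. That of the Gapdh control was 1.02 to 1.08 in HFD and 0.563 to 0.900 in chow. Neither ratio overlapped between the groups, so its part in the differences below cannot be told apart from diet. In bulk tissue, fewer cells of a type and less RNA per cell cannot be told apart.

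**Figure D1:**
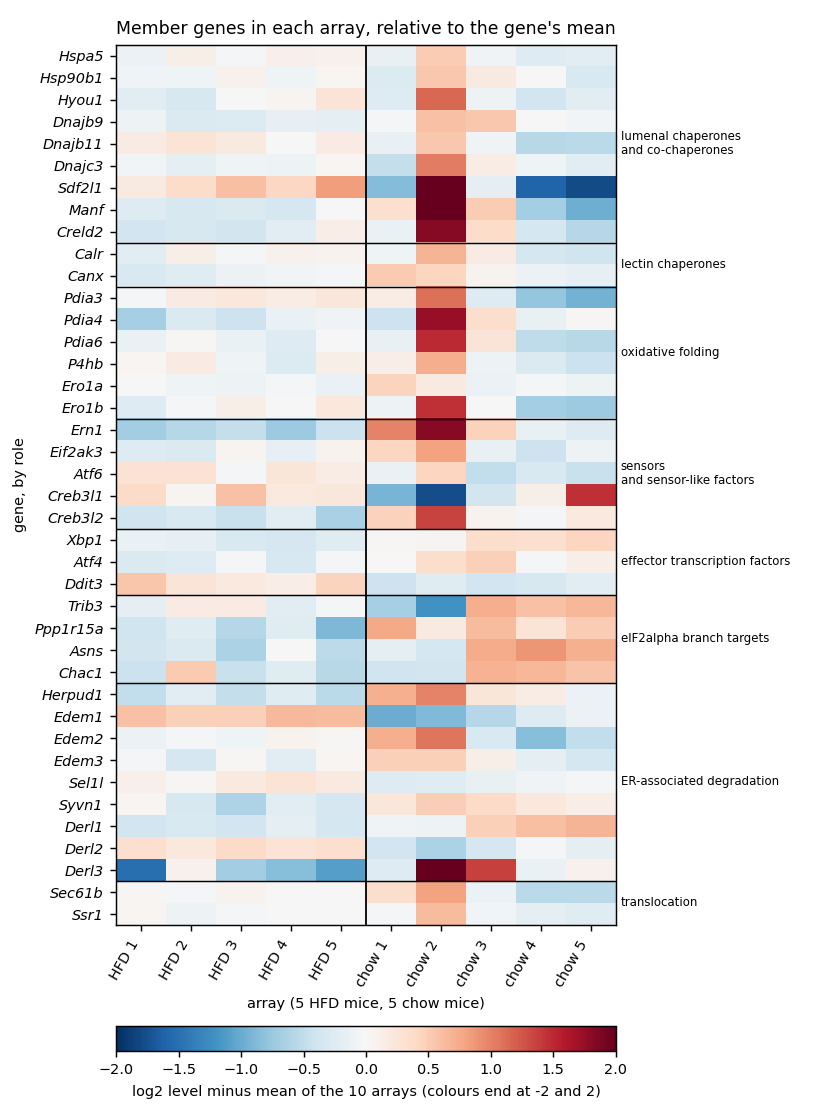
Level of each of the 40 genes (rows, by role) in each array (columns, 5 HFD mice left of 5 chow mice), as the log2 difference from the gene's mean over the 10 arrays. Chow array 2 is the highest array for 26 of the 40 genes, and the HFD columns differ little from each other.

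On the high-fat diet, 4 of the 40 genes were higher (Edem1, Ddit3, Derl2 and Sel1l), 8 were lower (Ern1, Ppp1r15a, Creb3l2, Herpud1, Derl1, Syvn1, Xbp1 and Atf4), and 28 did not pass the test at an adjusted p of 0.05 (limma, Benjamini-Hochberg adjustment over all 18193 genes). None of the 17 chaperones and oxidative folding genes passed. Over all genes 12.9% were higher and 13.1% lower, 25.9% in all, so being called does not by itself set these genes apart. The median difference was -0.15 for the members and -0.037 for all genes. The groups did not overlap for 4 members that were higher (11.5% of all genes) and 8 that were lower (11.0% of all genes). Those 8 include Dnajb9, which did not pass the test, and leave out Atf4, which did. The lower calls depended on scaling. Unnormalized values moved the median of all genes to 0.078, and subtracting array medians moved it to 0.21. Under either scaling 1 member, Ppp1r15a, was lower, while 5 and 6 were higher, Edem1, Ddit3, Derl2 and Sel1l among them. Beside these counts, 8.19% of all genes were lower and 15.1% higher unnormalized, and 7.92% and 24.3% after median subtraction. Of all genes called, 49.6% were higher after quantile normalization, 64.8% unnormalized and 75.4% after median subtraction.

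**Figure D2:**
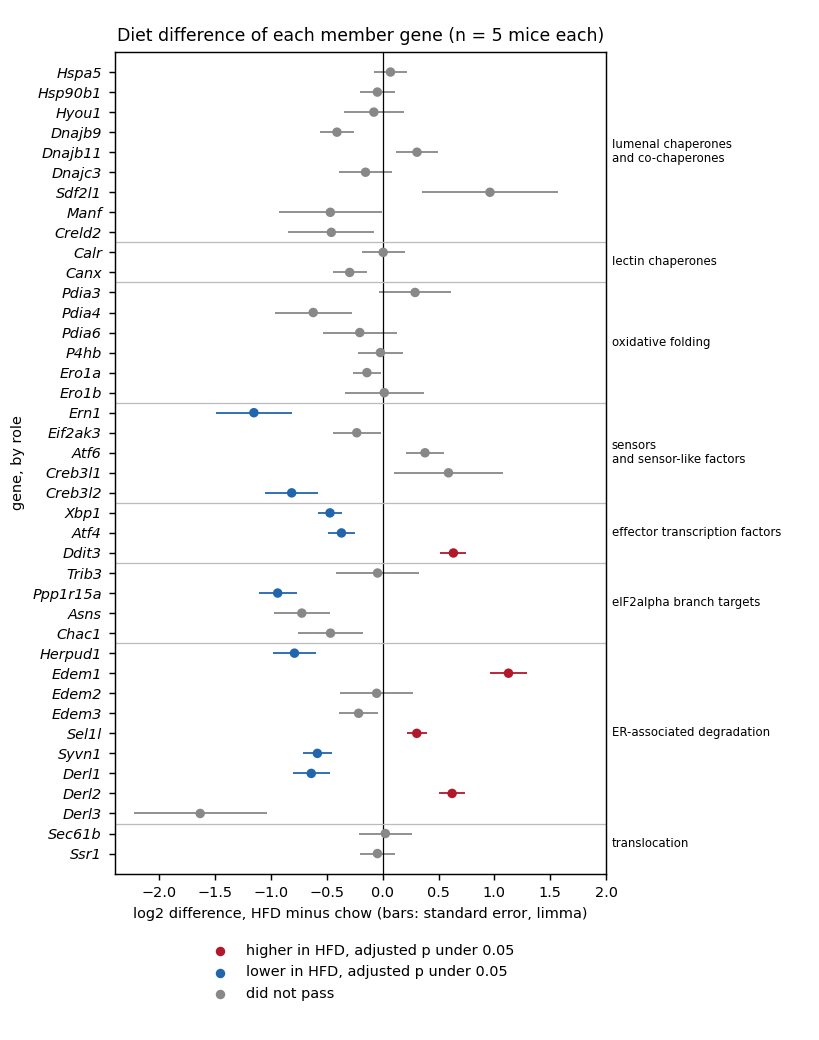
Log2 difference, HFD minus chow, of each gene (rows, by role); points are limma estimates, bars their standard errors, colours the test result. The 12 genes past the threshold lie among the sensors, the transcription factors, the eIF2alpha branch and ERAD, with differences from -1.15 to 1.13.

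Of the 9 ERAD members, 3 were higher and 3 lower, beside 12.9% and 13.1% of all genes. Among 16 other ERAD genes, 0 were higher and 1 was lower. Edem1, a lectin that hands mannose-trimmed glycoproteins to degradation, had levels of 9.66, 9.55, 9.55, 9.72 and 9.70 in HFD, against 8.08, 8.20, 8.51, 8.81 and 8.96 in chow. Every HFD array lay above every chow array (1.13, SE 0.17, adjusted p = 0.000709). Derl2, a channel-like protein of the degradation complex, had levels of 10.02, 9.89, 10.06, 9.95 and 10.004 in HFD, against 9.29, 9.04, 9.34, 9.65 and 9.50 in chow. Its groups did not overlap either (0.62, SE 0.12, adjusted p = 0.00298). Sel1l, the adaptor of the Syvn1 ligase complex, had levels of 9.90, 9.81, 9.98, 10.06 and 9.98 in HFD, against 9.53, 9.55, 9.65, 9.72 and 9.75 in chow. The difference was smaller, again with HFD wholly above chow (0.31, SE 0.089, adjusted p = 0.0278). The Sel1l call was lost without HFD array 3, 4 or 5, or chow array 1 or 3. In Edem1, Derl2 and Sel1l the lowest chow arrays were 1 and 2.

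The lower ERAD genes included the ligase itself. Syvn1 (HRD1), the ubiquitin ligase for which Sel1l is the adaptor, had levels of 9.19, 8.83, 8.55, 8.94 and 8.83 in HFD, against 9.38, 9.66, 9.55, 9.38 and 9.30 in chow (-0.58, SE 0.13, adjusted p = 0.00700). Herpud1, a short-lived membrane protein that recruits ERAD components, had levels of 8.50, 8.79, 8.52, 8.76 and 8.45 in HFD, against 9.71, 9.99, 9.24, 9.14 and 8.89 in chow (-0.79, SE 0.20, adjusted p = 0.0132). Derl1, a relative of Derl2, had levels of 11.02, 11.08, 11.01, 11.21 and 11.03 in HFD, against 11.32, 11.29, 11.86, 11.997 and 12.08 in chow (-0.64, SE 0.17, adjusted p = 0.0166). The groups did not overlap in any of these genes, but the chow arrays were ordered differently: Herpud1 was highest in chow arrays 2 and 1, and Derl1 in chow arrays 5, 4 and 3. Derl3, another derlin, had levels of 4.45, 6.05, 5.27, 5.12 and 4.86 in HFD, against 5.70, 8.99, 7.33, 5.84 and 6.06 in chow and did not pass (-1.63, SE 0.60, adjusted p = 0.0665). Its groups overlapped, with chow array 2 far above the rest. Edem2 and Edem3, relatives of Edem1, differed by -0.054 and -0.22 and did not pass (adjusted p = 0.924 and 0.405).

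**Figure D3:**
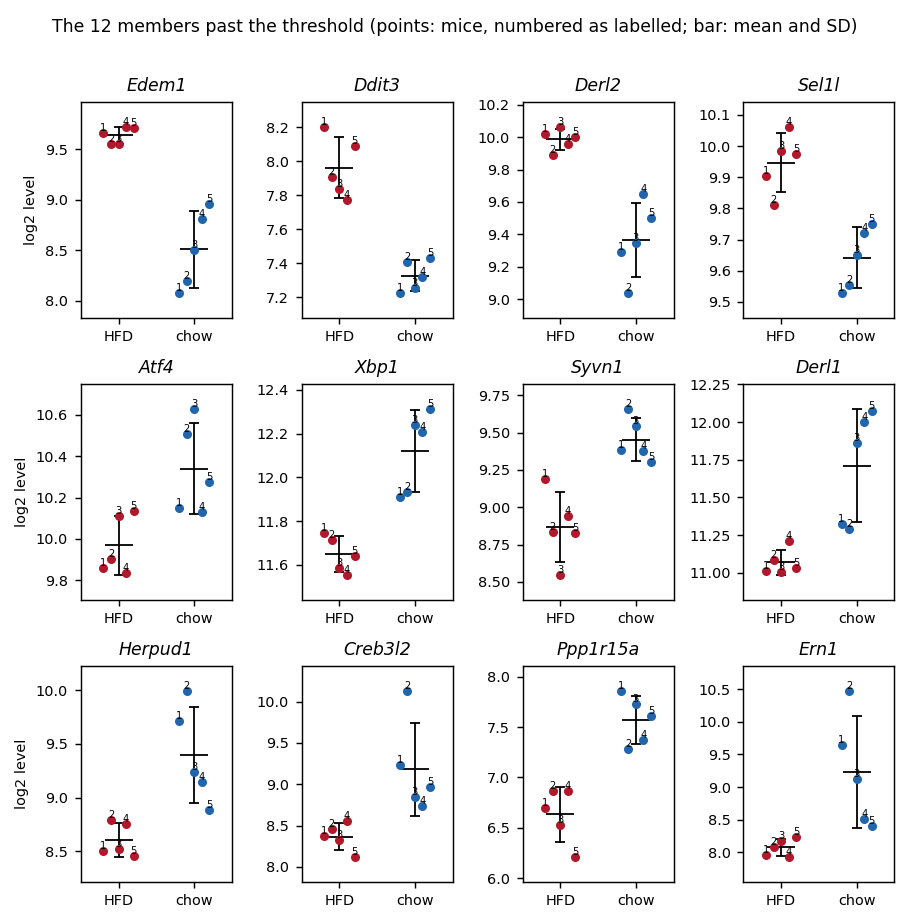
Log2 level of the 12 genes past the threshold in each mouse (points, HFD left of chow), with the group mean and SD. The groups overlap for Atf4 and for none of the other genes, and the SD is larger in chow for 9 of the 12.

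The transcription factors of the response split. Xbp1, the factor whose mRNA IRE1 splices, had levels of 11.74, 11.72, 11.59, 11.55 and 11.64 in HFD, against 11.91, 11.93, 12.24, 12.21 and 12.31 in chow. Every HFD array was below every chow array (-0.47, SE 0.11, adjusted p = 0.0103). Ddit3 (CHOP), which is induced downstream of Atf4 and linked to cell death under prolonged stress, had levels of 8.20, 7.91, 7.84, 7.77 and 8.09 in HFD, against 7.23, 7.41, 7.26, 7.32 and 7.43 in chow. The chow arrays lay within 0.20 of each other and all below HFD (0.63, SE 0.12, adjusted p = 0.00260). Atf4 itself lay just inside the threshold, with levels of 9.86, 9.90, 10.11, 9.84 and 10.13 in HFD, against 10.15, 10.50, 10.63, 10.13 and 10.28 in chow (-0.37, SE 0.12, adjusted p = 0.0492). Its groups overlapped by a small margin, between HFD array 5 and chow array 4, and the call was lost without any single HFD array or without chow array 2, 3 or 5.

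Of the sensors, Ern1 was lower, while Eif2ak3 and Atf6 did not pass. Ern1 had levels of 7.96, 8.08, 8.18, 7.93 and 8.23 in HFD, against 9.64, 10.47, 9.12, 8.51 and 8.40 in chow (-1.15, SE 0.34, adjusted p = 0.0294). The HFD arrays were close together and the chow arrays ranged over 2.08, with chow arrays 2 and 1 the highest, as for the epithelial markers, whose part in this result was not tested. Ern1 no longer passed when any single HFD array, or chow array 1 or 3, was left out. Eif2ak3 did not pass (-0.23, SE 0.22, adjusted p = 0.478), nor did Atf6 (0.38, SE 0.17, adjusted p = 0.133). Creb3l2, an Atf6-like factor needed for secretion in cartilage, had levels of 8.37, 8.46, 8.33, 8.55 and 8.12 in HFD, against 9.23, 10.13, 8.85, 8.73 and 8.97 in chow (-0.81, SE 0.24, adjusted p = 0.0268). Its groups did not overlap, but the call was lost without HFD array 1, 2, 3 or 5. Its relative Creb3l1 (OASIS), known for collagen production in bone, ranged over 3.23 among the chow arrays, lowest in array 2, and did not pass (0.59, SE 0.49, adjusted p = 0.417).

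The eIF2alpha branch had 1 gene past the threshold. Ppp1r15a (GADD34), the phosphatase subunit that reverses eIF2alpha phosphorylation, had levels of 6.70, 6.86, 6.53, 6.86 and 6.21 in HFD, against 7.86, 7.28, 7.74, 7.38 and 7.61 in chow. The groups did not overlap (-0.94, SE 0.17, adjusted p = 0.00244). Asns, asparagine synthetase and an Atf4 target, had levels of 8.90, 8.98, 8.63, 9.26 and 8.74 in HFD, against 9.09, 8.92, 10.003, 10.15 and 9.97 in chow and missed the threshold (-0.72, SE 0.25, adjusted p = 0.0555). Trib3, a pseudokinase that dampens Atf4 activity, had levels of 6.29, 6.62, 6.62, 6.23 and 6.41 in HFD, against 5.80, 5.25, 7.18, 7.05 and 7.13 in chow (-0.046, SE 0.37, adjusted p = 0.943). Chac1, a glutathione-degrading enzyme and Atf4 target, had levels of 7.03, 7.97, 7.02, 7.21 and 6.90 in HFD, against 7.06, 7.10, 8.16, 8.12 and 8.03 in chow (-0.47, SE 0.29, adjusted p = 0.269). In Asns, Trib3 and Chac1, chow arrays 3, 4 and 5 were near each other and above chow arrays 1 and 2, and the groups overlapped.

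No chaperone passed the test. Hspa5, the central Hsp70 chaperone of the ER, had levels of 11.95, 12.19, 12.05, 12.18 and 12.16 in HFD, against 11.92, 12.59, 11.998, 11.81 and 11.86 in chow (0.07, SE 0.15, adjusted p = 0.778). The HFD range lay inside the chow range. Hsp90b1, also called GRP94, did not pass (-0.048, SE 0.16, adjusted p = 0.858), nor did Hyou1, the exchange factor of Hspa5 (-0.079, SE 0.27, adjusted p = 0.862). Among the J-domain partners of Hspa5, Dnajb9 was lower in every HFD array than in any chow array but missed the threshold (-0.41, SE 0.15, adjusted p = 0.0656). Dnajb11 differed by 0.31 and Dnajc3 by -0.15 (adjusted p = 0.278 and 0.682).

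Sdf2l1, Manf and Creld2, lumenal proteins induced by ER stress, had the widest chow ranges among the lumenal chaperones. Sdf2l1 had levels of 8.68, 8.87, 9.09, 8.92 and 9.33 in HFD, against 7.63, 10.53, 8.32, 6.89 and 6.71 in chow (0.96, SE 0.61, adjusted p = 0.281). Manf had levels of 9.73, 9.68, 9.71, 9.66 and 10.01 in HFD, against 10.31, 11.99, 10.50, 9.31 and 9.02 in chow (-0.47, SE 0.46, adjusted p = 0.502). Creld2 had levels of 8.12, 8.19, 8.15, 8.31 and 8.65 in HFD, against 8.39, 10.34, 8.88, 8.16 and 7.95 in chow (-0.46, SE 0.38, adjusted p = 0.425). In each the HFD range lay inside the chow range, and chow array 2 was the highest of the 10 arrays.

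The lectin chaperones Calr and Canx, which bind glycoproteins with trimmed sugars, differed by 0.0042 and -0.30 (SE 0.19 and 0.15) and did not pass (adjusted p = 0.990 and 0.180). Of the protein disulfide isomerases, Pdia3 differed by 0.29, Pdia4 by -0.62, Pdia6 by -0.21 and P4hb by -0.021, with adjusted p from 0.219 to 0.954. Ero1a and Ero1b, the oxidases that recharge the isomerases, differed by -0.14 and 0.014 (adjusted p = 0.440 and 0.983). Sec61b, a subunit of the translocation channel, and Ssr1, of the translocon-associated complex, differed by 0.024 and -0.047 (adjusted p = 0.955 and 0.858).

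Within the chow group, most members were highest in the same array. Chow array 2 had the highest level of all 10 arrays for 26 of 40 members (65%), and for 15 of the 17 chaperones and oxidative folding genes, against 24.5% of all genes. The mean of the 9 lumenal chaperones was 9.70, 9.72, 9.78, 9.76 and 9.95 in HFD, against 9.57, 10.93, 9.95, 9.36 and 9.26 in chow. Chow array 2 exceeded the mean of chow arrays 4 and 5 by 3.73 for Sdf2l1, 3.04 for Derl3, 2.83 for Manf and 2.29 for Creld2, but by 0.75 for Hspa5. It was below that mean for 10 members, the farthest being Creb3l1 (-2.56), Trib3 (-1.84), Asns (-1.14) and Chac1 (-0.98). The SD was larger in chow for 37 of 40 members and for 76.8% of all genes, with a members' median SD of 0.14 in HFD and 0.45 in chow, beside 0.27 and 0.57 for all genes. The epididymis and testis markers were also highest in chow array 2, and their part in these levels was not tested.

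**Figure D4:**
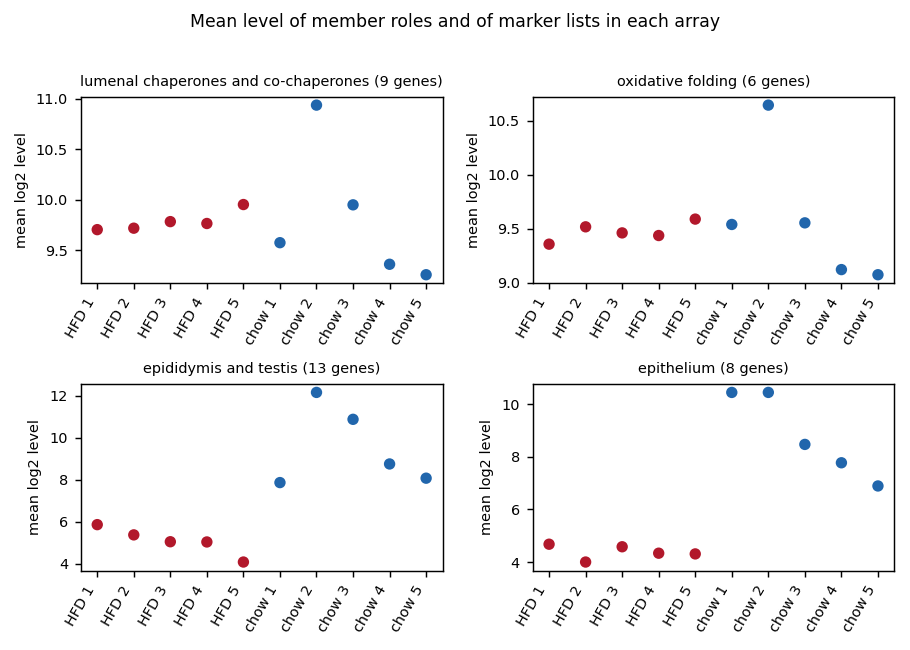
Mean log2 level in each array (HFD left of chow) of the 9 lumenal chaperones, the 6 oxidative folding genes, the 13 epididymis and testis markers and the 8 epithelial markers. Chow array 2 has the highest mean of the chaperones (10.93), the folding genes (10.64) and the epididymis and testis markers (12.16).

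Leaving out chow arrays changed which members passed. Without chow array 2 alone, 8 members were higher and 8 lower, beside 15.1% and 15.6% of all genes in that fit. Without chow arrays 1 and 2, 10 were higher and 12 lower, beside 18.5% and 19.8% of all genes in that fit. It kept chow arrays 3, 4 and 5 only. The 12 members called over the 10 arrays were all called in the same direction there. Sdf2l1 joined the higher genes (1.67, SE 0.32, adjusted p = 0.00214), as did Pdia3 (0.80), Atf6 (0.61), Dnajb11 (0.54), Edem2 (0.52) and Sec61b (0.42). Asns joined the lower genes (-1.14, SE 0.13, adjusted p = 0.000116), as did Derl3 (-1.26), Chac1 (-0.88) and Trib3 (-0.68). All 4 members of the eIF2alpha branch were then lower. For Asns, Chac1 and Trib3 the arrays left out were the lowest of chow, so their removal raised the chow mean. For Pdia3, Atf6, Edem2 and Sec61b they were the highest of chow, so their removal lowered it. Hspa5 (0.21), Hsp90b1 (0.021) and Calr (0.20) did not pass there either (adjusted p = 0.0895, 0.906 and 0.291). Without chow array 3 as well, Calr was higher (0.38, adjusted p = 0.0194), as were Ero1b (0.71), Manf (0.59) and Pdia6 (0.43), beside 16.6% of all genes. Only chow arrays 4 and 5 remained in that fit. Leaving out chow arrays 1 and 2 did not take out the 2 highest means of the epididymis and testis list. Chow array 1 had the lowest chow mean, at 7.87. Chow arrays 3, 4 and 5 had means of 10.88, 8.76 and 8.08, above every HFD array. The mean hid a split in chow array 1, which had the highest level of all arrays for Pate4 (12.95) and Spink8 (13.23). Lcn9 (1.13) and Lcn8 (3.72) were lowest there. With the mean of the whole epididymis and testis list as a covariate, none of the 12 members passed and 1 other member was higher (Sdf2l1). Standard errors were wider and the differences moved unequally. Ddit3 differed by 0.69 (SE 0.24), Ppp1r15a by -1.05 (SE 0.35), Xbp1 by -0.53 (SE 0.23) and Derl1 by -0.92 (SE 0.33), each at least as far from 0 as without the covariate. Edem1 differed by 0.83 (SE 0.33), whereas Ern1 was at -0.041 (SE 0.60) and Creb3l2 at -0.0074 (SE 0.40). Herpud1 (-0.26), Syvn1 (-0.21), Atf4 (-0.054), Derl2 (0.28) and Sel1l (0.20) were also nearer 0 than without the covariate. The list mean did not overlap between the diets (4.09 to 5.87 in HFD, 7.87 to 12.16 in chow). The covariate fit therefore cannot separate diet from these markers. In that fit, 1.63% of all genes were higher and 0.423% lower.

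**Figure D5:**
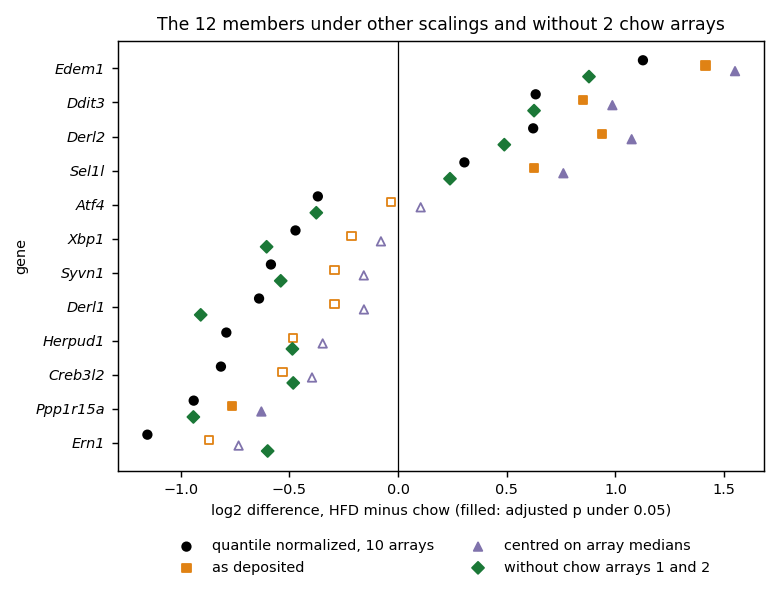
Log2 difference, HFD minus chow, of the 12 genes past the threshold, for quantile normalized values, unnormalized values, values after subtraction of array medians, and without chow arrays 1 and 2. Edem1, Ddit3, Derl2, Sel1l and Ppp1r15a passed under all 4, and the other 7 did not pass unnormalized or after median subtraction.

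Members with an ERSE or ERSE-II in the printed window and members without were described side by side, with no test. Of the 12 with a motif, 2 were lower (Herpud1 and Syvn1) and 0 higher, with a median difference of -0.18. Of the 23 with neither, 5 were lower and 4 higher, with a median of -0.14. Chow array 2 was the highest array for 11 of the 12 and for 12 of the 23, and it lay above the mean of the other chow arrays by a median of 0.85 and 0.46.

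Among 106 other genes of the same pathways, 14 were higher and 11 lower, beside 12.9% and 13.1% of all genes. The same shares of all genes stand beside the counts of each list below. The median difference of the 106 genes was -0.027. After subtraction of array medians, 36 of them were higher and 2 lower, beside 24.3% and 7.92% of all genes. Of 28 other folding and glycosylation genes, 5 were higher and 1 lower. Serpinh1, the collagen chaperone HSP47, rose by 1.46 (SE 0.37, adjusted p = 0.0143), the collagen prolyl hydroxylase P3h1 by 1.21 and the peroxidase Prdx4 by 1.18, whereas the ER reductase Dnajc10 fell by 1.91. Fibroblast markers, of which 4 of 8 were higher, averaged 10.51 ± 0.39 in HFD and 9.40 ± 0.52 in chow (SD, n = 5 each), and their part in these values was not tested. The higher markers were Col1a1, Col1a2, Col3a1 and Lum, whereas Pdgfra (-0.019), Pdgfrb (0.18), Dcn (0.17) and Fbln1 (0.46) did not pass. Of 25 other genes of the eIF2alpha and Atf4 branch, 4 were higher and 6 lower. The stress factor Atf3 rose by 3.60 (SE 0.20, adjusted p = 1.69e-06), Vldlr by 1.27 and the kinase Eif2ak2 (PKR) by 0.97. The amino acid transporter Slc7a5 fell by 2.51, the tryptophanyl-tRNA synthetase Wars by 2.02, and Cth, of cysteine synthesis, fell by 1.62. Macrophage markers, of which 11 of 11 were higher, averaged 10.83 ± 0.31 in HFD and 6.58 ± 0.40 in chow (SD, n = 5 each), and their part in the Atf3 value was not tested.

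In ER exit, retrieval and signalling, 4 of 21 genes were higher and 2 lower. Wfs1, the wolframin gene, rose by 1.65 (SE 0.29, adjusted p = 0.00209), the KDEL receptor Kdelr3 by 1.03 and the vesicle coat gene Sec24d by 0.42. The kinase Map3k5 (ASK1) fell by 0.85 and Kdelr1 by 0.37. Of 16 other ERAD genes, 1 passed: Selenos, a partner of the derlins, fell by 0.78 (SE 0.12, adjusted p = 0.000881). Of 16 other translocation genes, Tram2 rose by 1.17 and Sec62 fell by 0.30.

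Further probe sets covered 29 of the members. Of these 53, 33 had the sign of the brightest one, 6 passed in its direction and 2 passed against it (limma, adjusted over all probe sets). The other Edem1 probe set rose by 1.68, and 3 further Sel1l probe sets rose by 1.11, 0.49 and 1.24. Further Xbp1 probe sets differed by -0.41 and -0.43 and passed, and 1 of -0.20 did not. A dimmer Ero1a probe set differed by 0.64 (adjusted p = 0.00297) and one of Hspa5 by -0.57 (adjusted p = 0.0498), both against the sign of the brightest. The other Derl1 probe sets differed by 0.23, 0.43 and -0.32, and the other of Derl2 by -0.62, none past the threshold, so the opposite calls of these derlins rest on 1 probe set each. The Ern1 call also rests on 1 probe set. Its 4 other probe sets, with mean levels of 3.98 or less, differed by -0.26, -0.58, 0.22 and 0.74, and none passed. With all probe sets averaged, Ern1 differed by -0.21 and did not pass (limma, adjusted p = 0.711).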

How the data were processed

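The authors deposited 1 linear intensity per probe set and array. Per the labels' protocols, RNA of each mouse was amplified and labelled with biotin separately. How probes were summarised and scaled is not given in the sources used. The deposited intensities were raised to a floor at their 5th percentile (0.658), converted to log2 and, since array medians differed by 0.613, quantile normalized. The 34945 probe sets with exactly 1 gene symbol in the platform annotation gave 18193 genes, without 64 control probe sets. The test was limma 3.58.1 (R 4.3.3; lmFit, eBayes with a trend), tested on simulated data, with Benjamini-Hochberg adjustment over all genes. With 5 arrays a group, small differences can go undetected. The members, lists and motifs were chosen with earlier results of these data known. Genes named are the members and, of each related list, up to 3 with the largest called differences per direction. Of the other marker lists, endothelial markers (0 of 8 called) averaged 8.52 in HFD and 8.72 in chow, plasma cell markers (2 higher and 1 lower of 8) 6.62 in HFD and 6.22 in chow, and immediate early genes (1 higher and 1 lower of 9) 8.10 in HFD and 7.98 in chow. Alternatives changed the scaling, floor, variance prior, probe set, filter, weights, block, covariate and arrays. Same-numbered mice did not deviate together (correlations -0.02 to 0.0056), so they were not taken as pairs.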

Additional observations from a re-analysis of the deposited data

Results flagged for a closer look

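In 5 of 80 combinations of member and group, 1 array stood apart from the other 4 by Dixon's criterion. For a single combination chance gives about 1 in 20. The 80 are not independent, since the genes share the same 10 arrays, so the count cannot be weighed against that rate. Chow array 2 was the highest chow array for Hspa5, at 12.59 against 11.81 to 11.998 in the others, for Hyou1, at 9.59 against 8.05 to 8.33, and for Ssr1, at 11.31 against 10.43 to 10.64. HFD array 5 was the highest HFD array for Manf, at 10.01 against 9.66 to 9.73 in the others. HFD array 2 was the highest for Chac1, at 7.97 against 6.90 to 7.21.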

How the results depend on the processing

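Recomputing the 40 differences under 25 alternatives gave 999 values, of which 783 kept their direction and their side of the threshold. Against 8 lower members, 1 was lower in unnormalized values, 1 after median subtraction, 4 with all probe sets averaged and 5 without probe sets that may cross-match. With array weights 12 were lower, and 12 were lower without chow arrays 1 and 2. The lower share of all genes in these fits, in the same order, was 8.19%, 7.92%, 9.14%, 12.2%, 19.4% and 19.8%, against 13.1% in the main fit. Against 4 higher members, 6 were higher after median subtraction, 8 with array weights, 2 with all probe sets averaged, 10 without chow arrays 1 and 2, and 13 without chow arrays 1, 2 and 3. The higher share of all genes in these 5 fits was 24.3%, 18.1%, 12.1%, 18.5% and 16.6%. The members' median became 0.13 unnormalized, 0.26 after median subtraction, 0.037 with array weights, 0.025 without chow arrays 1 and 2, and 0.15 without chow arrays 1, 2 and 3. With the epididymis and testis mean, which did not overlap between the diets, as a covariate, 1 member was higher (Sdf2l1). In that fit 0 were lower and the median was 0.58. In that fit, 1.63% of all genes were higher and 0.423% lower. Higher and lower related genes numbered 16 and 4 unnormalized, 36 and 2 after median subtraction, 11 and 7 with no variance trend, 26 and 15 with array weights, 31 and 16 without chow arrays 1 and 2, 32 and 12 without chow arrays 1, 2 and 3, and 2 and 0 with the covariate. Leaving out 1 array at a time gave 3 to 8 higher and 5 to 9 lower members, a median of -0.24 to 0.026, and 9 to 18 higher and 6 to 12 lower related genes; the highest count of higher members and the only median above 0 came without chow array 2. Over the fits without 1 array, 10.2% to 15.1% of all genes were higher and 9.86% to 15.6% lower. In the fit with replicate number as a block, 3 members were higher and 7 lower, beside 10.4% and 10.2% of all genes. Other shares of all genes were 15.1% higher unnormalized, 11.9% higher and 11.3% lower with no variance trend, and 17.4% lower without chow arrays 1, 2 and 3. Among values past the threshold in either fit, the directions that turned were those of Atf4 after median subtraction (0.10), Derl1 without cross-matching probe sets (0.23), Derl2 with probe sets averaged (-6.55e-05), Edem2 without chow arrays 1 and 2 (0.52) or 1, 2 and 3 (0.65), and Manf (0.59) and Pdia6 (0.43) without chow arrays 1, 2 and 3. A further 103 values, past the threshold in neither fit, changed sign. The cause of these shifts was not tested.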
